A study of Rattus norvegicus with 58 samples.

Results

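The genes that mark a fat cell were followed through synovial tissue of rats with and without arthritis. A list of 7 genes defined the set: Adipoq, Pparg, Fabp4, Lpl, Cd36, Lep and Slc2a4. They were matched by identifier, and 6 were found among the 16879 genes of the table. The identifier listed for Lep, the hormone leptin, was not among them, and Lep was not analysed here.

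RNA from synovial tissue of female DA/OlaHsd rats was sequenced in 58 libraries of 10 groups. Arthritis was induced at 6 to 8 weeks of age with 250 µl of pristane, an oil whose injection leads to an autoimmune disease of many joints (pristane-induced arthritis, PIA), and was left to reach a score of at least 3 in each rear limb. RTD-1 is rhesus theta-defensin 1, a small cyclic peptide of innate immunity, given under the skin at 5 mg/kg in saline. The study asked which genes differ between arthritic and naive synovium and what RTD-1 does to them. PIA under RTD-1 had 4 libraries on day 1, 8 on day 3 and 8 on day 5, PIA under saline had the same numbers, and untreated PIA had 4. Healthy rats under RTD-1 had 5 libraries on day 3 and 5 on day 5. The 4 naive libraries came from rats for which the labels name no treatment. The ages of the healthy and naive rats are not given separately, and no healthy group with saline was analysed here. The labels do not say which library came from which rat, so every p-value measures the spread between these libraries, which may be technical.

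Fat lies under the synovial lining in much of a joint, and a dissected synovium usually carries some of it. PPARγ, encoded by Pparg, is the nuclear receptor that drives fat cell formation, and it works with C/EBP proteins to switch on the genes of the mature adipocyte. That programme includes secreted hormones (adiponectin from Adipoq), proteins that capture and carry fatty acids (Lpl, Cd36, Fabp4) and the glucose transporter GLUT4 (Slc2a4), which insulin moves to the cell surface. Several of these genes are also used outside fat: muscle carries Slc2a4, Lpl and Cd36, macrophages carry Fabp4, Lpl and Cd36, and endothelial cells carry Fabp4 and Cd36. The table pairs no identifier with a name, so other markers of fat, muscle, endothelium or leukocytes were not analysed here, and the tissue label could not be checked beyond these 6 genes. In bulk tissue, fewer cells of a type and less RNA per cell cannot be told apart.

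The promoters of the hormone gene and of the receptor gene are shown because these genes open the account of the programme. RefSeq promoter sequences of the GRCr8 rat assembly, from 250 bases before to 50 after a start site, were at hand for 3 of the 6 genes. Capitals mark the only motifs found among the 5 searched on both strands, and positions count from the start site.
Adipoq, chr11:91240120-91240419, minus strand: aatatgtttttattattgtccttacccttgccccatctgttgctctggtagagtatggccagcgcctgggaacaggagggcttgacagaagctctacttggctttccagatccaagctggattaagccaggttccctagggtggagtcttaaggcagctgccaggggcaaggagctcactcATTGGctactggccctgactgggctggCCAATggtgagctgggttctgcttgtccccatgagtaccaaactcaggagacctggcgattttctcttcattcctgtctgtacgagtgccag
Pparg, first start, chr4:150096808-150097107, plus strand: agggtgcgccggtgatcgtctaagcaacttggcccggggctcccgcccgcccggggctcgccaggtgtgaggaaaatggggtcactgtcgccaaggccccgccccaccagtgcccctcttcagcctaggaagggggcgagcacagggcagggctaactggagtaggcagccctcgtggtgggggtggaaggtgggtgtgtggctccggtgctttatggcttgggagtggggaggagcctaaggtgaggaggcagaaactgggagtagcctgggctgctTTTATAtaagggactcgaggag
Pparg, second start, chr4:150154522-150154821, plus strand: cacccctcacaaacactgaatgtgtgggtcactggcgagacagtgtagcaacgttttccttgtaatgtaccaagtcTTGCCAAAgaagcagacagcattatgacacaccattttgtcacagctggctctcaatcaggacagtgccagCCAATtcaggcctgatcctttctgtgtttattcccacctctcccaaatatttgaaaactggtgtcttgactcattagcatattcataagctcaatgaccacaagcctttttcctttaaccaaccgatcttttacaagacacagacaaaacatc
The Adipoq window held CCAAT at -69 on the opposite strand, where it reads ATTGG, and at -42 on the gene's own strand. CCAAT, the box that gave C/EBP proteins their name, occurs in 37.5% of 33469 rat promoter windows of the same length. The window of the second Pparg start held CCAAT at -103 and TTGCNNAA, the core of C/EBP sites, at -174, and that core occurs in 10.6% of windows. The first Pparg start had TATAAA on the opposite strand at 29, found in 14.2% of windows. AGGTCA, a nuclear receptor half-site (16.2% of windows), and the DR1 element, a pair of such half-sites that PPARγ binds with its partner RXR (0.415%), had no match in these windows. No matches overlapped each other. The table gives 1 value per gene, so it does not tell the Pparg start sites apart.

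In arthritic synovium the adipocyte genes were nearly all far below their level in joints without arthritis. Levels are given in normalized reads, that is whole reads recovered from the deposited values and brought to 1 common depth. Levels of different genes are not comparable, because longer genes collect more reads. Each of the 44 arthritic libraries lay below each of the 14 libraries without arthritis for Adipoq, Pparg, Fabp4, Lpl and Slc2a4, while Cd36 overlapped. Adipoq ran from 36.8 to 2009.6 normalized reads over arthritic libraries, with a median of 366, and from 3674 to 10034 over the others, with a median of 8013. In these 5 genes the highest arthritic library was the same one, replicate 2 of PIA with 5 days of RTD-1. The lowest library without arthritis was also the same one, replicate 3 of healthy rats with 5 days of RTD-1.

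**Figure D1:**
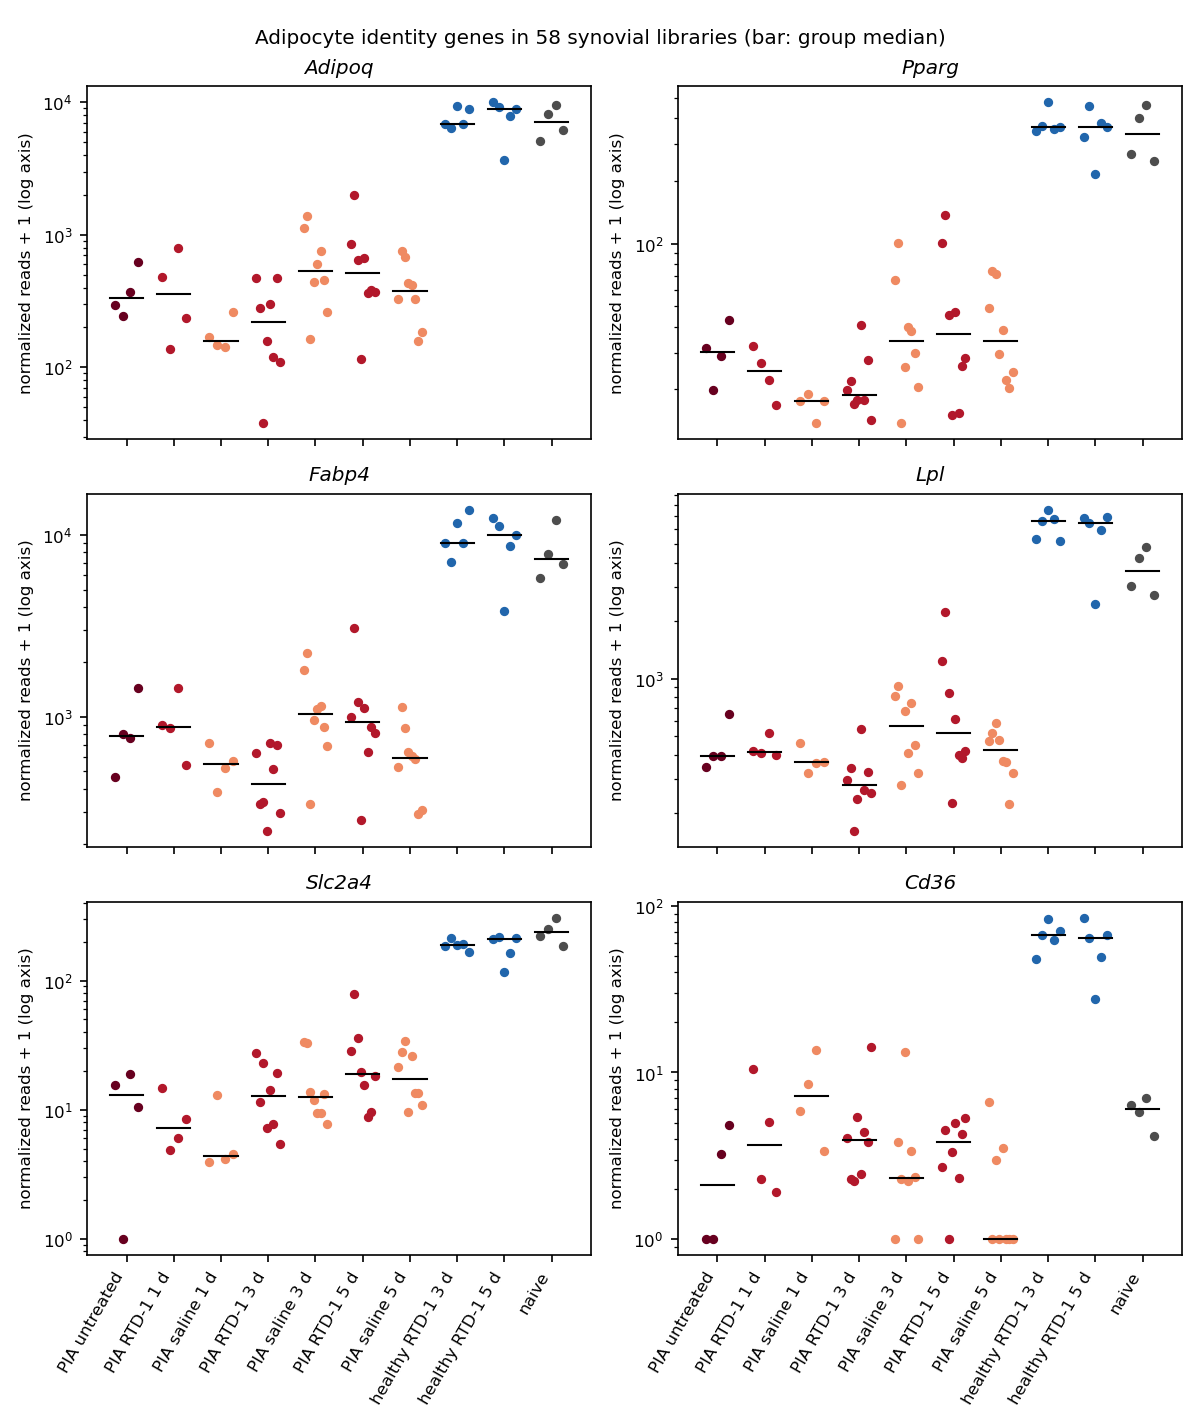
Normalized reads + 1 (log axis) of 6 adipocyte genes in each of 58 libraries, by group, with a bar at the group median. For 5 of the genes every arthritic point sits below every healthy RTD-1 and naive point. Cd36 is different: naive libraries, at 3.12 to 5.99 normalized reads, lie among the arthritic ones and healthy RTD-1 libraries stand above all others.

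Untreated PIA was set against naive tissue first, since the labels give neither group RTD-1 or saline. Tests were made with limma on log2(normalized reads + 1), a scale that understates changes of low values, with adjustment over 13062 genes and a call at an adjusted p under 0.05. Of all genes 11.4% were called lower in PIA and 27.8% higher, and 5 of the 6 adipocyte genes were called lower. The median log2 fold change of the 6 was -3.39, or -3.49 without Cd36, against 0.28 for all genes. That shift of all genes is on the deposited scaling, and where it came from was not tested. TMM factors, another way of scaling libraries, level the typical gene between libraries by design. With them the median gene was at -0.00, and 19.8% of genes were called lower and 19.6% higher. Ordered from the lowest fold, Slc2a4 stood at place 24 of 13062, Adipoq at 53, Pparg at 128, Fabp4 at 159, Lpl at 211 and Cd36 at 973.

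Adipoq (ENSRNOG00000001821) encodes adiponectin, a hormone made almost only by fat cells. It had 296, 244, 368 and 623 normalized reads in untreated PIA, against 5088, 8139.7, 9602 and 6150.0 in naive tissue. The groups did not overlap, and even the highest PIA library, replicate 4, was far below the lowest naive one. Mean levels were 383 ± 168 in PIA and 7245 ± 2017 in naive tissue (SD, n = 4 each). The log2 fold change was -4.29 with an SE of 0.642 (limma adjusted p = 4.83e-07).

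Pparg (ENSRNOG00000008839), the receptor gene, had 30.4, 18.9, 27.9 and 42.2 normalized reads in untreated PIA, against 268, 399, 461 and 247 in naive tissue. No library of one group reached the other. The difference was -3.49 log2 with an SE of 0.479 (limma adjusted p = 5.06e-08), from means of 29.8 ± 9.61 in PIA and 343 ± 103 in naive tissue (SD, n = 4 each). The PIA values rest on 19 to 44 reads per library, so counting error alone is sizeable there.

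Among the genes of fatty acid handling, Fabp4 and Lpl fell and Cd36 was too low to read well. Fabp4 (ENSRNOG00000010805), which carries fatty acids inside the cell, had 463, 800.2, 764 and 1434 normalized reads in untreated PIA, against 5799, 7873, 11994 and 6888 in naive tissue. Its log2 fold change was -3.29 with an SE of 0.488 (limma adjusted p = 3.52e-07). Lpl (ENSRNOG00000012181) encodes lipoprotein lipase, which frees fatty acids from circulating triglyceride. It had 345, 395, 393 and 650.3 normalized reads in untreated PIA, against 3021, 4244, 4809 and 2722 in naive tissue. Its log2 fold change was -3.06 with an SE of 0.413 (limma adjusted p = 4.05e-08), and neither gene had overlapping groups.

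Cd36 (ENSRNOG00000005906), the fatty acid translocase, had 0, 0, 2.23 and 3.84 normalized reads in untreated PIA, against 5.33, 4.80, 5.99 and 3.12 in naive tissue. These are 0 to 4 reads per PIA library and 3 to 6 per naive library, where a count of 0 allows up to 3 reads. The groups overlapped, and the value of -1.52 log2 was not called (limma adjusted p = 0.0582). It was called in limma with TMM factors (-1.69, limma adjusted p = 0.0401), with a pseudocount of 0.5, with array weights, and without PIA replicate 3 or 4. Cd36 reached 10 normalized reads in 13 libraries, 10 of them from healthy RTD-1 rats and none naive, so it entered the test through the group in which it is high. How reads were assigned between Cd36 and any near-identical copies is not given in the sources used here, so its level is uncertain.

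Slc2a4 (ENSRNOG00000017226), the insulin-responsive glucose transporter, had 14.7, 0, 17.8 and 9.59 normalized reads in untreated PIA, against 221, 252, 306 and 183 in naive tissue. The naive libraries were all well above the PIA libraries. The log2 fold change was -4.99 with an SE of 0.593 (limma adjusted p = 1.50e-09). Its size leans on PIA replicate 2, which had 0 reads of Slc2a4, and without that library it was -4.02 (limma adjusted p = 2.99e-08). With a pseudocount of 8 it was -3.85.

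The called genes were also set against Adipoq within each library. Per 100 reads of Adipoq, untreated PIA libraries held between 104 and 162 reads of Lpl, and naive libraries between 44.3 and 59.4. Fabp4 stood at 156 to 329 reads per 100 of Adipoq in PIA and at 96.7 to 125 in naive tissue. Pparg stood at 6.77 to 10.3 in PIA and 4.01 to 5.26 in naive tissue. In each of these 3 ratios the groups did not overlap, with PIA above naive. Over all 44 arthritic and 14 other libraries each of these ratios overlapped. There Fabp4 stood at 117 to 923 and 96.7 to 153, and Pparg at 2.66 to 43.3 and 3.23 to 5.83. Slc2a4 overlapped, at 0 to 4.94 in PIA and 2.98 to 4.35 in naive tissue. These ratios compare reads and not molecules, so they can be read between libraries but not between genes, and they carry no test. Cells other than adipocytes that hold Lpl, Fabp4 or Pparg were not measured, and their part in the ratios was not tested.

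RTD-1 was then compared with saline of the same duration in arthritic rats. None of the 6 genes was called on any day by limma. Of all genes 0% were called on day 1, 0.00766% on day 3 and 0% on day 5. At an unadjusted p under 0.05 there were 612, 1010 and 470 of 13062 genes on those days, among them 0, 4 and 2 of the 6 adipocyte genes. limma voom on the recovered reads also called none of the 6 on any day.

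On day 1 the arms overlapped for all 6 genes. Adipoq had 483, 137, 792 and 235 normalized reads with RTD-1, against 168, 142, 259 and 146 with saline. The log2 fold change was 0.94 (95% interval -0.35 to 2.23, limma adjusted p = 0.912). RTD-1 replicates 1 and 3 were the highest of the day and the other pair lay within or just below the saline range. Without RTD-1 replicate 3 it was 0.53. For Fabp4 it was 0.72 (95% interval -0.26 to 1.70, limma adjusted p = 0.912). Pparg was at 0.49, Slc2a4 at 0.47 and Lpl at 0.21, while Cd36 was at -0.83 (95% interval -2.14 to 0.48).

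On day 3 the 4 genes with the most reads in these groups pointed to lower levels with RTD-1, without passing adjustment. Adipoq ran from 36.8 to 473 normalized reads with RTD-1, with a median of 218, and from 164 to 1379 with saline, with a median of 528. The log2 fold change was -1.51 (95% interval -2.42 to -0.60, limma unadjusted p = 0.00169, adjusted p = 0.373). Saline replicates 1 and 2 were the highest of the day, and saline replicates 3, 4, 7 and 8 lay inside the RTD-1 range. Fabp4 ran from 233 to 716 with RTD-1, with a median of 426, and from 331 to 2234 with saline, with a median of 1029.7. Its log2 fold change was -1.20 (95% interval -1.89 to -0.51, limma unadjusted p = 0.00104, adjusted p = 0.346). For Fabp4, 6 of the 8 saline libraries were above every RTD-1 library. Lpl averaged 302 ± 114 in the RTD-1 arm and 576 ± 240.3 in the saline arm (SD, n = 8 each), which is -0.89 log2 (95% interval -1.48 to -0.30, limma adjusted p = 0.384). Pparg averaged 21.1 ± 8.45 in the RTD-1 arm and 40.9 ± 28.7 in the saline arm (SD, n = 8 each), which is -0.74 log2 (95% interval -1.41 to -0.06, limma adjusted p = 0.578). The RTD-1 arm held the 2 shallowest libraries, replicates 6 and 8 (factors 1.71 and 2.61 megareads). They had 35 and 49 reads of Adipoq and 5 and 6 of Pparg. Over the alternatives given below, a fit without both among them, Adipoq ran from -1.80 to -1.18 and Fabp4 from -1.57 to -0.83. Lpl ran from -1.30 to -0.48 and Pparg from -1.04 to -0.43. Slc2a4 was at -0.19 log2 (95% interval -1.03 to 0.65) and Cd36 at 0.62 (95% interval -0.30 to 1.55), and neither was called.

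The sign on day 3 was the same in both sets of replicates for Adipoq, Fabp4, Lpl and Pparg. Both sets are parts of the comparison above, which gave no call, so an equal sign adds no support to it. These 4 genes also moved together within libraries, as given below, so they are not separate results. In replicates 1 to 4 the log2 fold change was -1.80 for Adipoq, -1.57 for Fabp4, -1.30 for Lpl and -1.04 for Pparg. In replicates 5 to 8 it was -1.22, -0.83, -0.48 and -0.43 for the same genes in that order. The second set was closer to 0 for each of these 4, and the difference between the sets was not tested. Slc2a4 was at -0.45 in replicates 1 to 4 and 0.07 in replicates 5 to 8, and Cd36 at -0.0093 and 1.26.

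On day 5 Lpl, Fabp4 and Adipoq pointed the other way from day 3, again without a call, and Cd36 had the same sign on both days. Lpl ran from 225 to 2209.7 normalized reads with RTD-1, with a median of 518, and from 220.0 to 589 with saline, with a median of 422. Its log2 fold change was 0.62 (95% interval 0.03 to 1.21, limma adjusted p = 0.998). RTD-1 replicate 2 held the 2209.7 and replicate 1 the next highest value, 1238, while the lowest libraries of the arms were almost level. Fabp4 averaged 1124 ± 843 in the RTD-1 arm and 619 ± 279 in the saline arm (SD, n = 8 each), which is 0.70 log2 (95% interval 0.01 to 1.39, limma adjusted p = 0.998). Adipoq averaged 675 ± 586 in the RTD-1 arm and 410.2 ± 213 in the saline arm (SD, n = 8 each), which is 0.49 log2 (95% interval -0.43 to 1.40, limma adjusted p = 0.998). Without RTD-1 replicate 2 the values were 0.36 for Lpl, 0.45 for Fabp4 and 0.20 for Adipoq, and without RTD-1 replicate 3 Adipoq was at 0.79. Cd36 was at 0.91 (95% interval -0.02 to 1.83), the highest of the 6, Slc2a4 at 0.24 (95% interval -0.60 to 1.09) and Pparg at 0.08 (95% interval -0.60 to 0.76). The Cd36 value rests on 0 to 5 reads per RTD-1 library and 0 to 15 per saline library. It was 0.26 in replicates 1 to 4 and 1.55 in replicates 5 to 8.

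The change of the RTD-1 effect between days was tested directly. The effect on day 5 minus that on day 3 was 1.996 log2 for Adipoq, 1.90 for Fabp4 and 1.51 for Lpl (limma adjusted p = 0.441, 0.293 and 0.310 in that order), and 0.81 for Pparg, 0.43 for Slc2a4 and 0.28 for Cd36. The effect on day 3 minus that on day 1 was -2.45 log2 for Adipoq and -1.92 for Fabp4 (limma adjusted p = 0.630 and 0.591), -1.23 for Pparg, -1.10 for Lpl, -0.66 for Slc2a4 and 1.46 for Cd36. Day 5 minus day 1 lay between -0.46 (Adipoq) and 1.74 (Cd36). None of the 6 genes was called in any of these tests, nor between day 5 and day 1. Of all genes 0.00766% were called for day 3 minus day 1, 0% for day 5 minus day 1 and 0% for day 5 minus day 3. At an unadjusted p under 0.05 the numbers of adipocyte genes were 4, 1 and 3 for these differences, where 695, 627 and 917 of 13062 genes were, and limma voom called none of the 6.

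**Figure D2:**
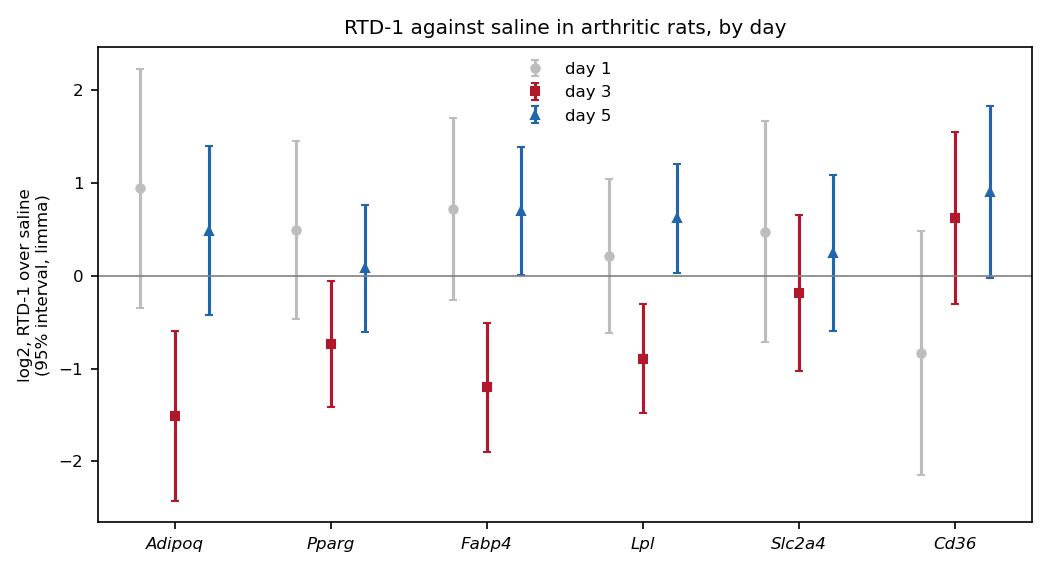
log2 fold change of RTD-1 over saline in arthritic rats on days 1, 3 and 5, from limma, with 95% intervals not adjusted for the number of genes. On day 3 Adipoq (-1.51), Fabp4 (-1.20), Lpl (-0.89) and Pparg (-0.74) lie below 0, and on day 5 Lpl (0.62) and Fabp4 (0.70) lie above it, and none of these was called after adjustment.

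Against untreated PIA, the arthritic groups that received injections gave a single call among the adipocyte genes. It was Slc2a4 after 5 days of RTD-1, where 1.33% of all genes were called higher (5.42% with TMM factors). For the other 5 comparisons none of the 6 genes was called, where 0% (saline day 1), 0.0153% (saline day 3), 8.37% (saline day 5), 0% (RTD-1 day 1) and 0.00766% (RTD-1 day 3) of all genes were called in either direction. At an unadjusted p under 0.05 these 5 comparisons held 1, 0, 1, 0 and 1 of the 6 in the same order, where they held 699, 1924, 3398, 273 and 1136 of 13062 genes, and limma voom called none of the 6. Their log2 fold changes lay between -1.05 (Adipoq) and 1.80 (Cd36), both in saline day 1. For saline day 5 several signs depended on the replicates used. With replicates 1 to 4 only, Adipoq was at 0.53, Pparg at 0.82, Lpl at 0.25 and Cd36 at 0.09. With replicates 5 to 8 only, the same genes were at -0.51, -0.22, -0.47 and -0.54. Fabp4 and Slc2a4 kept their signs. After 5 days of RTD-1 the genes other than Slc2a4 lay between 0.20 (Fabp4) and 0.68 (Cd36). Slc2a4 ran from 7.86 to 77.2 normalized reads with RTD-1 for 5 days, with a median of 18.1, against 14.7, 0, 17.8 and 9.59 in untreated PIA. The ranges overlapped, and 4 of the 8 RTD-1 libraries lay within the PIA range. The log2 fold change was 1.49 with an SE of 0.514 (limma adjusted p = 0.0449), from means of 25.8 ± 22.7 with RTD-1 (SD, n = 8) and 10.5 ± 7.79 in PIA (SD, n = 4). Saline for 5 days gave 1.25 for Slc2a4 (limma adjusted p = 0.112), and both results share the PIA libraries. Without PIA replicate 2, the library with 0 reads, the RTD-1 value was 0.53 (limma adjusted p = 0.538). The call was also lost without PIA replicate 4, or without RTD-1 replicate 1, 2, 3, 4 or 8, with values between 1.22 and 1.66.

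After 5 days of injections both arms were still well below naive tissue. With RTD-1, 5 of the 6 genes were called lower, where 11.1% of all genes were. The log2 fold changes with RTD-1 against naive were -3.79 for Adipoq, -3.11 for Pparg, -3.09 for Fabp4, -2.54 for Lpl and -3.50 for Slc2a4 (limma adjusted p at most 5.42e-07). With saline, 6 of 6 were called lower, where 10.7% of all genes were. The values with saline were -4.28 for Adipoq, -3.18 for Pparg, -3.79 for Fabp4, -3.16 for Lpl and -3.74 for Slc2a4 (limma adjusted p at most 7.17e-08). Cd36 had -0.84 with RTD-1 (limma adjusted p = 0.302) and -1.75 with saline (limma adjusted p = 0.0159), and in saline 5 of 8 libraries had 0 reads of it. The saline call of Cd36 was lost with a pseudocount of 8, in a fit of these groups alone, in replicates 1 to 4 and in limma voom. As a share of the naive mean, the Adipoq mean stood at 9.32% in the RTD-1 arm, 5.66% in the saline arm and 5.28% in untreated PIA. The RTD-1 mean leans on replicate 2, at 2009.6 normalized reads. In both arms Adipoq averaged more in replicates 1 to 4 than in replicates 5 to 8. The means were 905 and 445 with RTD-1, and 548 and 272 with saline. Untreated PIA has replicates 1 to 4 only, and the difference between the sets was not tested. The medians were 512, 374 and 332 normalized reads in the same order of groups. These comparisons share the naive libraries, and the test between the arms, given above, is the one that sets RTD-1 against saline.

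**Figure D3:**
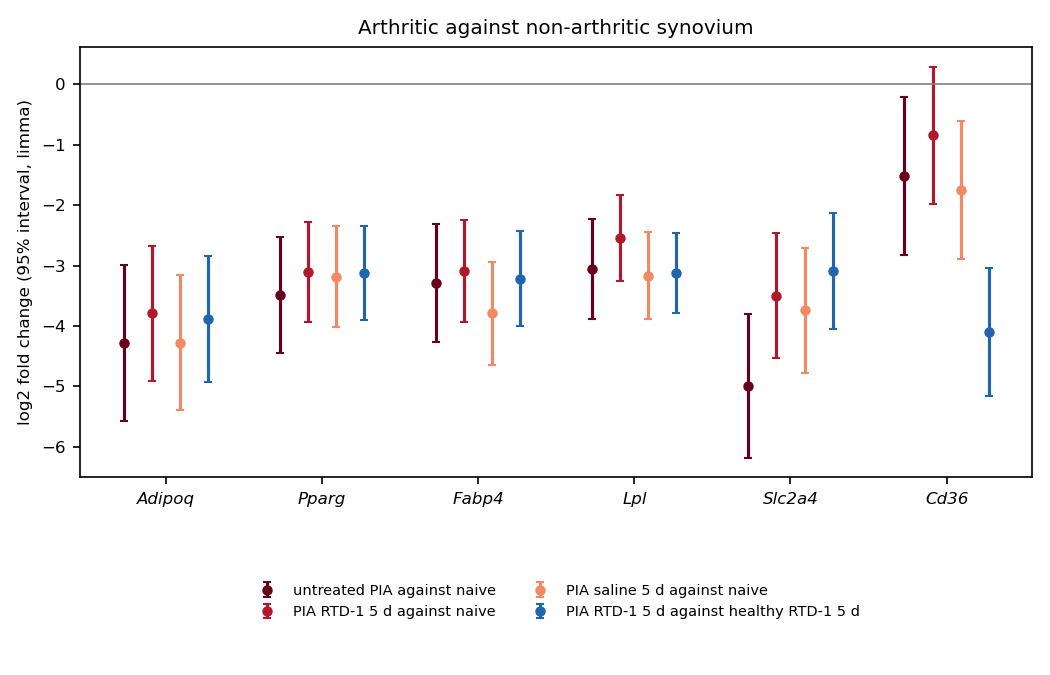
log2 fold change of arthritic over non-arthritic synovium for 6 adipocyte genes, from limma, with 95% intervals. The first 3 points of each gene share the naive libraries and the fourth, PIA with 5 days of RTD-1 over healthy rats with 5 days of RTD-1, does not. All intervals for Adipoq, Pparg, Fabp4, Lpl and Slc2a4 lie at or below -1.83, and only Cd36 has an interval that reaches 0 (PIA with 5 days of RTD-1 against naive).

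A comparison that uses no naive library gave the same direction. PIA rats with RTD-1 were set against healthy rats with RTD-1 of the same duration. On day 5 the arthritic libraries are the same ones that were set against naive tissue above. All 5 genes other than Cd36 were called lower on both days, where 30.6% of all genes were lower on day 3 and 33.6% on day 5 (26.8% and 20.7% with TMM factors). On day 3 the log2 fold changes were -5.35 for Adipoq, -4.18 for Pparg, -4.50 for Fabp4, -4.45 for Lpl and -3.92 for Slc2a4. On day 5 they were -3.89, -3.13, -3.22, -3.12 and -3.09 for the same genes in that order (limma adjusted p at most 6.57e-07 on either day). Cd36 was called lower too (-4.03 on day 3 and -4.10 on day 5), but it was tested only because it is high in the healthy groups. The healthy RTD-1 libraries were all deeper than the arthritic RTD-1 libraries, and the part of depth in these values was not tested.

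The order of the group medians was alike for the 5 genes. The 3 groups without arthritis came first for each of them, then a gap, then the 7 arthritic groups. Neighbouring groups in that order overlapped everywhere except across the gap. Among arthritic groups the highest median of Adipoq, Fabp4 and Lpl was in saline for 3 days (528, 1029.7 and 564 normalized reads in that order of genes). The lowest median was in saline for 1 day for Adipoq (157), Pparg (16.6) and Slc2a4 (3.36), and in RTD-1 for 3 days for Fabp4 (426) and Lpl (279).

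Between healthy rats with RTD-1 and naive rats, no adipocyte gene other than Cd36 was called, with wide intervals. Adipoq averaged 7697 ± 1347 normalized reads on day 3 of RTD-1 and 7934 ± 2501 on day 5 (SD, n = 5 each), against 7245 ± 2017 in naive rats (SD, n = 4). Pparg averaged 381 ± 54.0 and 346 ± 88.1 in the same healthy groups, against 343 ± 103 in naive rats. Neither gene was called, with a 95% interval for Adipoq of -1.11 to 1.34 log2 on day 3 and -1.13 to 1.32 on day 5. The log2 fold changes of Adipoq, Pparg and Fabp4 lay between 0.02 and 0.33 over both days, and with TMM factors or quantile normalization Adipoq and Pparg changed sign on both days and Fabp4 on day 5. Slc2a4 averaged 188 ± 16.6 after 3 days and 183 ± 44.1 after 5 days, against 241 ± 51.9 in naive rats, with log2 fold changes of -0.33 and -0.40 that were not called (limma adjusted p = 0.762 and 0.677). Lpl averaged 6306 ± 1005 after 3 days and 5735 ± 1884 after 5 days, against 3699 ± 990.2 in naive rats. All healthy libraries of day 3 were above all naive ones for Lpl, and the log2 fold change of 0.79 was not called (limma adjusted p = 0.182; called with array weights or with only the groups compared), nor was 0.58 on day 5 (limma adjusted p = 0.333). The median of all genes was itself 0.30 log2 higher on day 3 and 0.34 on day 5 with the deposited scaling. With TMM factors, which level the typical gene by design, it was at 0.01 and 0.02. The share of reads in genes, as defined above, was 39.2% to 43.1% on day 3 and 36.2% to 46.1% on day 5. In naive libraries it was 28.5% to 41.6%, and its part in the shift was not tested.

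Cd36 was the only gene of the set called between healthy RTD-1 and naive rats, where 11.1% of all genes were called higher on day 3 and 12.9% on day 5 (2.97% and 2.86% with TMM factors). It had 47.3, 65.7, 82.5, 61.2 and 70.0 normalized reads on day 3 of RTD-1 and 84.1, 63.1, 26.6, 48.1 and 65.9 on day 5, against 5.33, 4.80, 5.99 and 3.12 in naive rats. Every healthy RTD-1 library was several times above every naive one. The log2 fold change was 3.52 on day 3 (limma adjusted p = 0.000111) and 3.26 on day 5 (limma adjusted p = 0.000322). Because Cd36 passed the filter only through these groups, the test adds no support beyond the values. Depth moved with the groups: the library factor was 11.1 to 17.5 megareads in healthy RTD-1 libraries and 5.52 to 6.47 in naive ones. In 3 saline libraries of PIA rats that were also deep, with factors of 10.9 to 15.3, Cd36 stood at 12.7 (day 1 replicate 2), 12.2 (day 3 replicate 4) and 5.63 (day 5 replicate 1). The other libraries of those groups reached at most 7.53, 2.80 and 2.50. Over all arthritic libraries the highest Cd36 value, 13.2 from 6 reads, was in a shallow one, day 3 RTD-1 replicate 8 (factor 2.61). Adipoq in the 3 deep saline libraries lay between 142 and 441, inside or just below the range of their groups. The part of depth, of library preparation and of saline injection in the Cd36 result was not tested, and RTD-1 and depth cannot be told apart in the healthy groups. Between healthy rats with 5 and 3 days of RTD-1 none of the 6 genes was called by limma or by limma voom, where 0% of all genes were called and 62 had an unadjusted p under 0.05, none of them in the set.

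**Figure D4:**
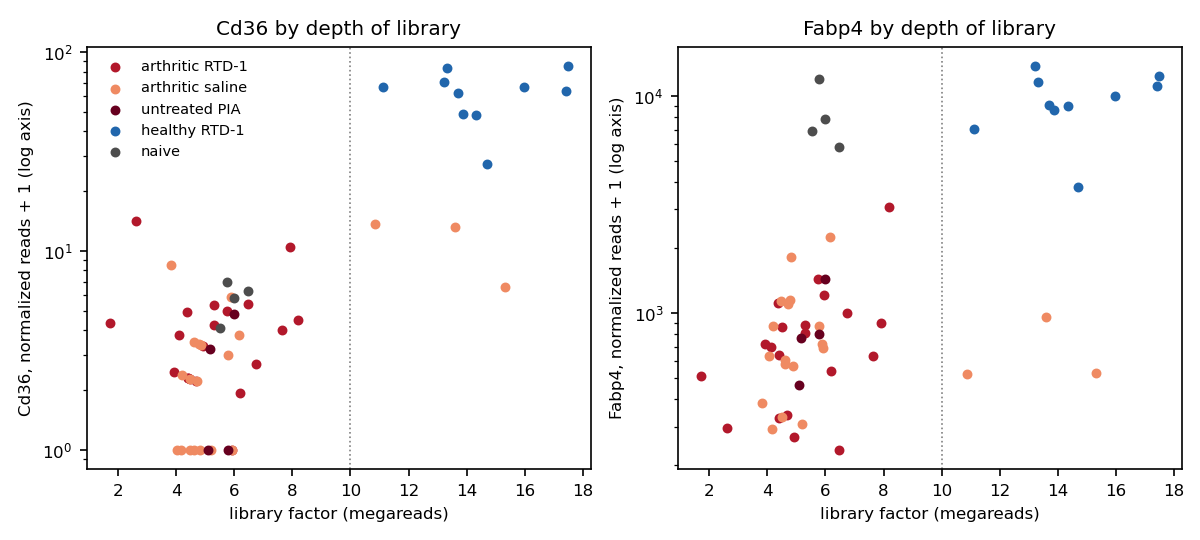
Normalized reads + 1 (log axis) of Cd36 and Fabp4 against the factor of each library in megareads. Libraries right of the dotted line, at 10 megareads, are the 10 healthy RTD-1 and 3 saline libraries. Among arthritic libraries the 3 deep ones are near the top for Cd36 (5.63 to 12.7) and in the middle of the range for Fabp4 (521 to 961). The highest arthritic Cd36 value, 13.2, is in a shallow library, replicate 8 of PIA with 3 days of RTD-1 (2.61 megareads).

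Within groups, libraries that were high in one adipocyte gene tended to be high in the others. Over the 44 arthritic libraries, deviations of log2 values from the group means gave a Pearson r of 0.83 between Adipoq and Fabp4 (Spearman rho 0.82), 0.82 with Lpl (rho 0.81) and 0.77 with Pparg (rho 0.78). It was 0.44 with Slc2a4 (rho 0.50) and 0.13 with Cd36 (rho 0.17), both of which rest on few reads per library. Pparg and Lpl gave 0.86. Without the 2 libraries farthest from the median, Adipoq gave 0.85 with Fabp4, 0.79 with Lpl and 0.78 with Pparg. Over the 14 libraries without arthritis r was 0.97 between Adipoq and Fabp4, 0.87 with Lpl and 0.84 with Pparg. Without the 2 farthest libraries these were 0.93, 0.66 and 0.69 in that order. Genes of 1 library share its depth, its scaling and its make-up of tissue, so these values are descriptions without a test.

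**Figure D5:**
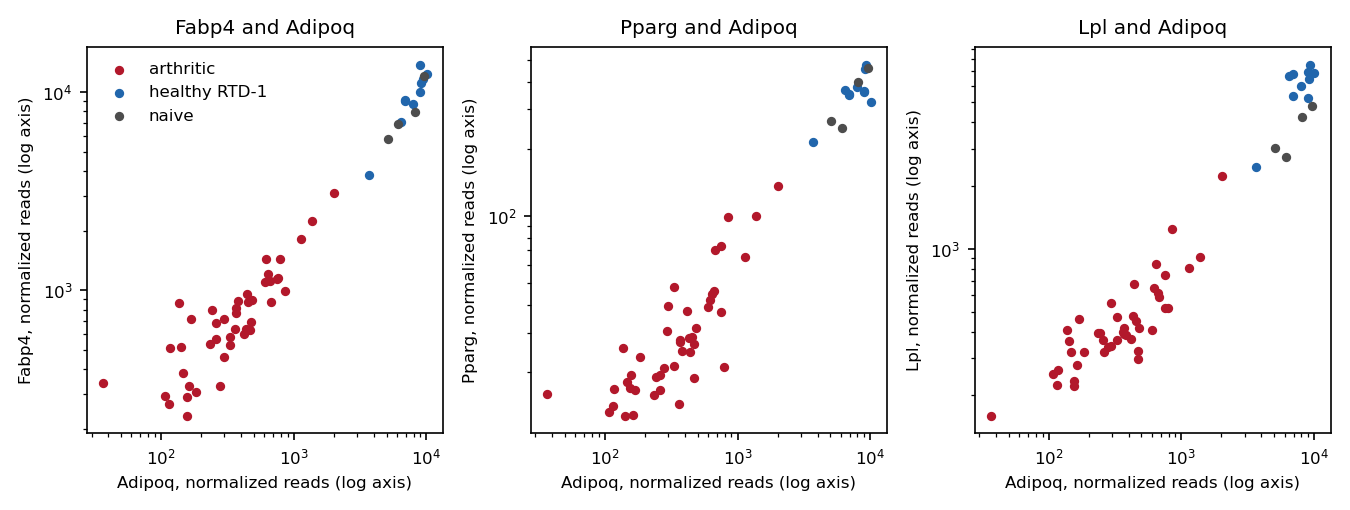
Fabp4, Pparg and Lpl against Adipoq in normalized reads (both axes log), 1 point per library. Points of arthritic libraries form a band at the lower left and those of healthy RTD-1 and naive libraries a cluster at the upper right. The arthritic library nearest to that cluster, at 2009.6 normalized reads of Adipoq, is replicate 2 of PIA with 5 days of RTD-1.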

How the data were processed

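The deposited table holds log2 values for 58 libraries of synovial RNA, made by the authors, per the labels' protocols, from single reads of 75 nt and a stranded total RNA kit. The submitters' processing notes name HISAT and DESeq, with versions, settings, annotation and genome build not given in the sources used here. Each deposited log2 value proved to be a whole number of reads divided by 1 factor per library, with 0 reads held as 0.9 of a read. With a tolerance of 0.001 relative to the value, 100% of the values above 0 gave whole reads. High values meet such a tolerance whatever their fraction, so the check bears on low values only.

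Factors lay between 1.71 and 17.5 megareads and were at least 10 in 13 libraries, called deep here. Libraries held between 464693 and 7716834 reads in genes. The row that carries no identifier held at most 0.0137% of reads and was left out. Normalized reads are recovered reads at the median factor, 5.75 megareads. Genes needed 10 normalized reads in 4 libraries. limma 3.58.1 (R 4.3.3) fitted the 10 group means on log2(normalized reads + 1), with trend and robust moderation, two-sided tests and Benjamini-Hochberg adjustment over 13062 genes, so every adjusted p and interval comes from limma across all genes. The test had been planned for normalized reads; the table holds logarithms, which were undone first. The script was tested on simulated data.

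Titles of the samples gave the groups and replicate numbers. A chi-square per gene of at least 2.48 between libraries of a group exceeded sampling noise. Intervals are 95% and, like the limit for 0 reads, do not cover differences in preparation. The rule for named genes took every gene of the list and the identifiers whose pattern was most like that of Adipoq; comparisons with no call give some of the genes as a range. Gene names come from the list that defines the set, since none of the 16879 identifiers could be paired with a name in the reference table, so further gene lists and cell markers were not analysed here. The genes, lists and comparisons were chosen with earlier results of these data known. Promoters were searched with Python 3.11.15, and figures were drawn with matplotlib 3.10.9.

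Alternatives were pseudocounts of 0.5 and 8, TMM factors, no filter or one of 50 normalized reads, quantile normalization, a fit of only the groups compared, array weights, a replicate block, replicates 1 to 4 or 5 to 8 only, leaving out the deep saline libraries, limma voom on recovered reads, and each library left out in turn. Leaving out the 2 shallowest libraries was added after seeing the data.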

Additional observations from a re-analysis of the deposited data

Results flagged for a closer look

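Single libraries stood apart from the rest of their group in 4 of 60 sets of values, judged by the gap to the nearest library on the log2 scale, and chance flags about 1 in 20 such sets. Replicate 3 of the healthy rats with 5 days of RTD-1 was low in Adipoq (3674 normalized reads, the next lowest library of its group at 7886) and in Lpl (2444, the next at 5947). The same library was also the lowest of its group in Pparg, Fabp4, Slc2a4 and Cd36. Replicate 3 of the healthy rats with 3 days of RTD-1 was high in Pparg (477 normalized reads, the next highest at 365). Replicate 4 of PIA with 1 day of saline was high in Slc2a4 (12.1 normalized reads, the next highest at 3.54), which rests on 8 reads.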

How the results depend on the processing

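Of the 120 results (6 genes in 20 comparisons) 31 were called, and none of these changed sign under any alternative. Apart from leaving out single libraries, 369 of their recomputed values stayed called and 8 lost the call; with single libraries left out, 351 stayed and 7 lost it. These counts include the calls of Cd36, which was tested only because it is high in the healthy RTD-1 groups. Its stable signs in comparisons with those groups add no support. The losses were in Slc2a4 for RTD-1 day 5 against PIA and in Cd36 for saline day 5 against naive, where Cd36 lost its call with a pseudocount of 8 (limma adjusted p = 0.0962), with only the groups compared (0.0731), with replicates 1 to 4 only (0.113) and in limma voom (0.0856). For RTD-1 day 5 against PIA the number of genes called was 1, and it was 0 with a pseudocount of 8, with no filter, with only the groups compared and with RTD-1 replicates 5 to 8 only; with single libraries left out it ran from 0 to 1. For saline day 5 against PIA it was 0, and 1 with array weights or a replicate block, in both cases Slc2a4, and 0 to 1 with single libraries left out. For healthy RTD-1 day 3 against naive it was 1, and 2 with only the groups compared or with array weights, which added Lpl (limma adjusted p = 0.0114 and 0.0479). Slc2a4 in RTD-1 against saline on day 3 changed sign, to 0.17 with array weights, 0.07 with replicates 5 to 8 only, 0.13 without the shallowest libraries and 0.012 in limma voom, and Cd36 there was at -0.0093 with replicates 1 to 4 only. On day 5 array weights gave -0.21 for Pparg and -0.12 for Slc2a4, and replicates 5 to 8 gave -0.27 for Slc2a4; single libraries left out gave -0.18 to 0.27 for Pparg and -0.026 to 0.42 for Slc2a4. For day 5 minus day 3, Slc2a4 was at -0.28 with array weights and -0.34 with replicates 5 to 8, and Cd36 at -0.014 with quantile normalization and -0.052 to 0.56 with single libraries left out. For RTD-1 day 5 against PIA, Fabp4 ran from -0.061 to 0.48 with single libraries left out. The causes were not tested.

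The replicate block changed no other call. Deviations from group means of same-numbered libraries correlated between -0.101 and 0.0693 in PIA and naive. The range was -0.0532 to 0.0707 in the arms of day 1, -0.0285 to 0.142 on day 3 and -0.0933 to 0.277 on day 5. It was -0.363 to 0.229 between the healthy groups. Between healthy and naive rats it was -0.104 to 0.223 for day 3 and -0.105 to 0.182 for day 5. Libraries with different numbers were not compared, so these values cannot tell whether replicate numbers pair the samples. Calls over all genes moved by more than 1.5 times in several comparisons, for example from 1093 to between 68 and 2933 for saline day 5 against PIA, 1656 to between 547 and 2561 for RTD-1 day 5 against PIA, and 1546 to between 690 and 3776 for healthy RTD-1 day 3 against naive. Depth limits Cd36 and Slc2a4 most, since arthritic libraries held at most 29 and 110 reads of them.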

Other observations

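The genes whose pattern was most like that of Adipoq can be given by identifier only. Over all 58 libraries these were ENSRNOG00000058006 (Pearson r 0.981) and ENSRNOG00000015086 (r 0.980). ENSRNOG00000058006 averaged 193 ± 100.4 normalized reads in untreated PIA and 3096 ± 923 in naive tissue, and ENSRNOG00000015086 averaged 129.7 ± 41.0 in PIA and 3342 ± 1207 in naive tissue (SD, n = 4 each). Over deviations from the group means, which leave out the differences between groups, they were ENSRNOG00000000158 (r 0.899) and ENSRNOG00000014090 (r 0.895). In the list of all genes ordered by r with Adipoq over the libraries, Fabp4 stood at place 9, Lpl at 11, Pparg at 15, Slc2a4 at 192 and Cd36 at 1573.

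Over all libraries the ratio of Lpl to Adipoq reads had a median of 119 per 100 in the 44 arthritic libraries (63.4 to 433) and 69.6 per 100 in the 14 others (44.3 to 104). The highest ratio of Lpl, 433, and of Fabp4, 923, were in the library with the least Adipoq, replicate 3 of PIA with 3 days of RTD-1, which held 30 reads of Adipoq.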
